A study of Mus musculus with 35 samples.

Results

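Mouse epiblast stem cells (EpiSCs) cultured on a flat surface were compared with the epiblast of the gastrulating embryo at E7.5, the oldest embryonic stage of the study. The comparison holds 6 bulk RNA libraries of the 35 samples in the series, 3 of 2D EpiSCs and 3 of E7.5 epiblast, chosen by their labels and not by any measured value. The series asks how epiblast cells behave when they leave the epithelium during gastrulation, and it also holds 3D EpiSCs, EpiLCs and 4 earlier embryonic stages. The 2D EpiSCs were wild-type pluripotent cells converted from embryonic stem cells (ESCs) with Fgf2 and Activin-A. They were kept in a medium with these factors on fibronectin, and the ESC line behind the sequenced cultures is not given in the sources used here. The E7.5 epiblasts came from untreated wild-type CD-1 embryos, pooled without regard to sex. The paper mated CD-1 or Pdgfrα:H2B-GFP mice for its epiblast samples and names no line for E7.5. It also says that embryo sex was not determined. The visceral endoderm, extra-embryonic ectoderm and allantois were cut away by hand, and 3 to 5 epiblasts were pooled for a library. Culture, strain, sex and library kit all changed with the group. Poly-A capture was used for the cells, and total RNA with removal of ribosomal cDNA was used for the embryos, so these factors cannot be told apart in this contrast. No source says that the 3 libraries of a group came from separate cultures or dissections, so p-values measure only the spread between these libraries.

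The epiblast is the epithelium that forms the whole body of the embryo. During gastrulation its cells pass through the primitive streak to become mesoderm and definitive endoderm, and the cells that stay behind become ectoderm. EpiSCs are self-renewing cells in the primed state of pluripotency, which Activin/Nodal and FGF signals maintain. The Nodal pathway acts through Smad2 and Smad3, is helped by the co-receptor Tdgf1 and is held in check by its own targets Lefty1, Lefty2 and Cer1. Wnt, BMP and retinoic acid signals pattern the posterior of the embryo, where the Hox genes are switched on.

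Levels are given as scaled TPM. TPM is a level normalized for transcript length and library total, and the deposited values were divided by a median-of-ratios factor for each library. Differences are on the log2(scaled TPM + 1) scale, as 2D EpiSC minus E7.5 epiblast, which understates the change of low genes. A gene was called at a limma adjusted p (Benjamini-Hochberg, over all genes tested) below 0.05 and an absolute log2 difference above 1. The files hold no counts, so depth is unknown. A gene at 0 is described as listed at 0, and no fold is given against such a group. The 3 libraries of each group were close, with a median absolute log2 difference across genes of 0.0634 to 0.129 among 2D EpiSCs and 0.104 to 0.12 among E7.5 epiblasts, against 0.507 to 0.553 between the groups. Replication-dependent histone transcripts, which carry no poly-A tail, took 0.0731% to 0.088% of TPM in 2D EpiSCs and 3.75% to 3.97% in E7.5 epiblasts, and were left out of the tests.

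The labels were checked against markers of the cell types that the samples could hold. The 15 visceral endoderm markers, most of them secreted lipid carriers and serum proteins, summed to between 11.7 and 20 scaled TPM in 2D EpiSCs and to between 2610 and 2727 in E7.5 epiblasts. Afp, Apoa2, Apoc2, Fgb and Trf were listed at 0 in all 3 libraries of 2D EpiSC, while all 15 were above 2 in E7.5. Apoa1, an apolipoprotein, stood at 520, 527 and 544 in E7.5 and at 2.13, 2.2 and 0.142 in 2D EpiSCs. The same 15 markers summed to between 2932 and 3196 at E6.5 and to between 1755 and 1764 at E5.5. The epiblast libraries from E5.5 to E7.5 therefore all held visceral endoderm transcripts, and the part these play in the results was not tested. The 10 epiblast markers summed to between 3939 and 4113 in 2D EpiSCs. In E7.5 they summed to between 1224 and 1279, below the lowest library of every other group (2897 at E4.5). Tdgf1, an epiblast marker, was under 1 scaled TPM in each E7.5 library. The 14 blood and endothelium markers summed to between 76.4 and 87.4 in E7.5 and between 14.1 and 15.4 in 2D EpiSCs, and the 10 allantois markers to between 517 and 520 against 140 to 182. In bulk samples, fewer cells of a type and less RNA per cell cannot be told apart.

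**Figure D1:**
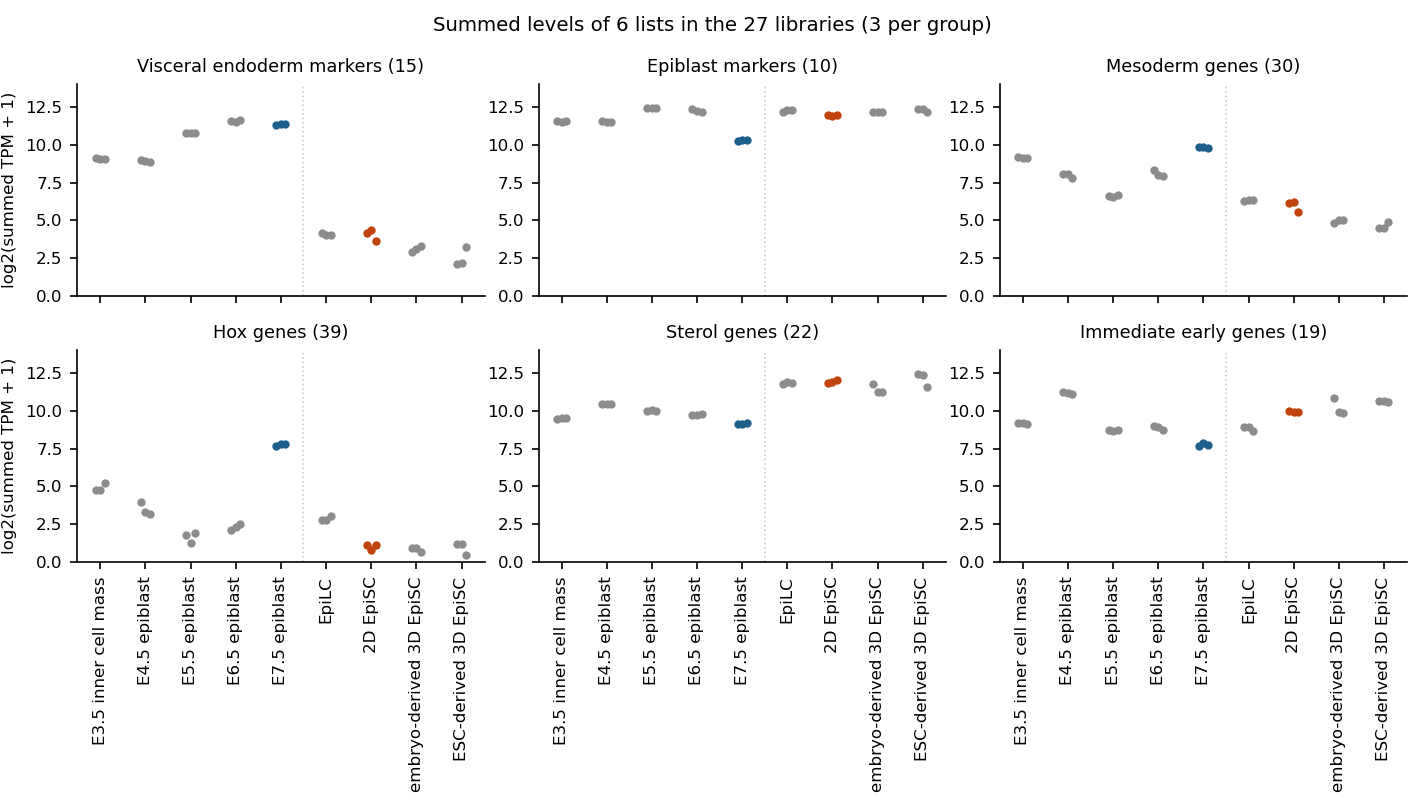
Each panel sums the scaled TPM of a gene list in each of the 27 RNA libraries, on a log2(sum + 1) axis, with 3 points a group, 2D EpiSC in orange, E7.5 epiblast in blue and the other groups in gray. The dotted line divides embryo libraries (left, total RNA kit) from culture libraries (right, poly-A kit). Visceral endoderm markers are high in every embryo group and low in every culture group, the sterol genes are higher in every culture group than in every embryo group, and the Hox genes at E7.5 (205 to 223 scaled TPM) are above all other groups.

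Of 11471 genes tested, 1355 (11.8%) were called higher and 1266 (11.0%) lower in 2D EpiSCs. The counts of calls in the gene lists below are to be read beside these shares. The libraries of the groups did not overlap for 2619 of the 2621 genes called, so a lack of overlap adds little to a call. For 7507 genes (65.4%) the unadjusted 95% interval of the difference lay inside 1 log2 unit on either side of 0. The median difference over all genes was 0.00, with the 5th percentile at -1.65 and the 95th at 1.60. On the TPM as deposited, without scaling, the median moved to 0.33 and the calls to 2315 higher and 831 lower, so the balance of directions depends on the scaling. The scaling did not turn the direction of any named gene that was called. The genes with the shortest total exon length leaned to 2D EpiSCs (median 0.18 in the lowest quartile) and those with the longest to E7.5 (median -0.28 in the highest).

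The 10 called genes with the greatest differences in favor of 2D EpiSCs were led by genes of the Nodal pathway. Lefty1 (chr1:180935022-180938400, mm10), a secreted Nodal antagonist, stood at 194, 192 and 212 in 2D EpiSCs and at 0, 0.109 and 0 in E7.5, a log2 difference of 7.60 ± 0.074 (SE). Tdgf1 and Lefty2 of the same pathway, Fgf5, the cell cycle regulator Sfn, the ectonucleotidase Enpp3, the adaptor Dok2, the transcription factor Egr1 and the pepsinogen Pga5 followed. Mup6 was also among them, but it belongs to a family of near-identical urinary protein genes and its level is uncertain. Lefty1, Tdgf1, Lefty2, Enpp3, Egr1, Pga5 and Mup6 were below 2 scaled TPM in every E7.5 library. They passed the filter on low values through 2D EpiSC alone and so had to be higher. The 10 genes lower in 2D EpiSCs with the greatest differences held 7 visceral endoderm markers: Apoc2, Ttr, Apob, Apoa1, Cubn, Afp and Apoa4. Aldh1a2 and Cdx1 were also among them. The remaining gene, Gm20594, is an unnamed gene model whose level is uncertain. Of the 15 visceral endoderm markers, 12 passed the filter on low values through the E7.5 libraries alone and so had to be lower.

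**Figure D2:**
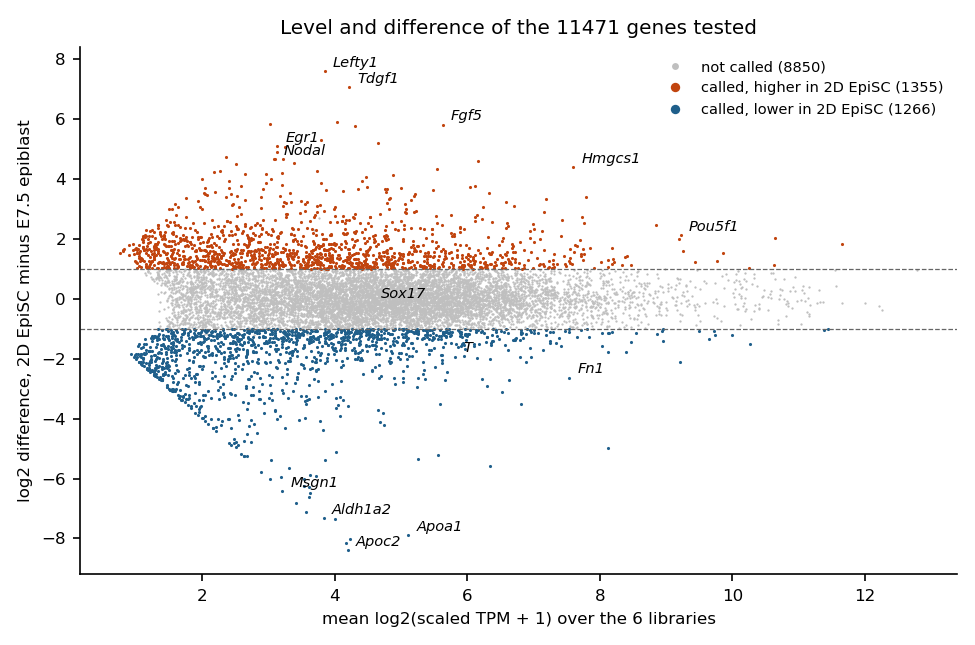
Each point is 1 of the 11471 genes tested, with its mean log2(scaled TPM + 1) over the 6 libraries on the x axis and its log2 difference on the y axis. Orange points are the 1355 genes called higher in 2D EpiSC, blue points the 1266 called lower, gray points were not called and dashed lines mark 1 log2 unit. Lefty1 and Tdgf1 are the uppermost points and Apoc2 the lowest.

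Most of the epiblast markers were higher in 2D EpiSCs, while Sox2 was not called. Of 10 epiblast markers tested, 8 were called higher and none lower, with a median of 2.06, and 1 of the 10 passed the filter through 2D EpiSC alone. Pou5f1 (Oct4), a core pluripotency factor, stood at 1230, 1206 and 1311 in 2D EpiSCs and at 271, 289 and 291 in E7.5. The libraries did not overlap, and the log2 difference was 2.13 ± 0.065 (SE, limma adjusted p = 6.62e-07). Nanog, its partner in the core network, stood at 81.8, 79.6 and 113 against 7.61, 7.26 and 9.13, a difference of 3.35. Sox2 stood at 77.3, 76.3 and 68.7 against 43.2, 45.2 and 44.9. Its difference of 0.72 (95% interval 0.56 to 0.89) was below the threshold of 1, which it passed at 1.08 on the unscaled TPM. Fgf5, a secreted growth factor and a hallmark of the primed state, stood at 374, 357 and 377 in 2D EpiSCs and at 5.65, 6.58 and 4.68 in E7.5. The earlier epiblast was closer to the cells, with mean levels of Fgf5 of 143 at both E5.5 and E6.5. Utf1, a chromatin protein of pluripotent cells, was at 210 ± 12.4 against 9.67 ± 2.52 (SD, n = 3 each), and the transcription factor Foxd3 was at 18.7 ± 1.45 against 0.0445 ± 0.077. Otx2, needed in the early epiblast and later in the head, was called higher by 1.98 (291, 258 and 269 against 65.3, 74.3 and 65.4).

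**Figure D3:**
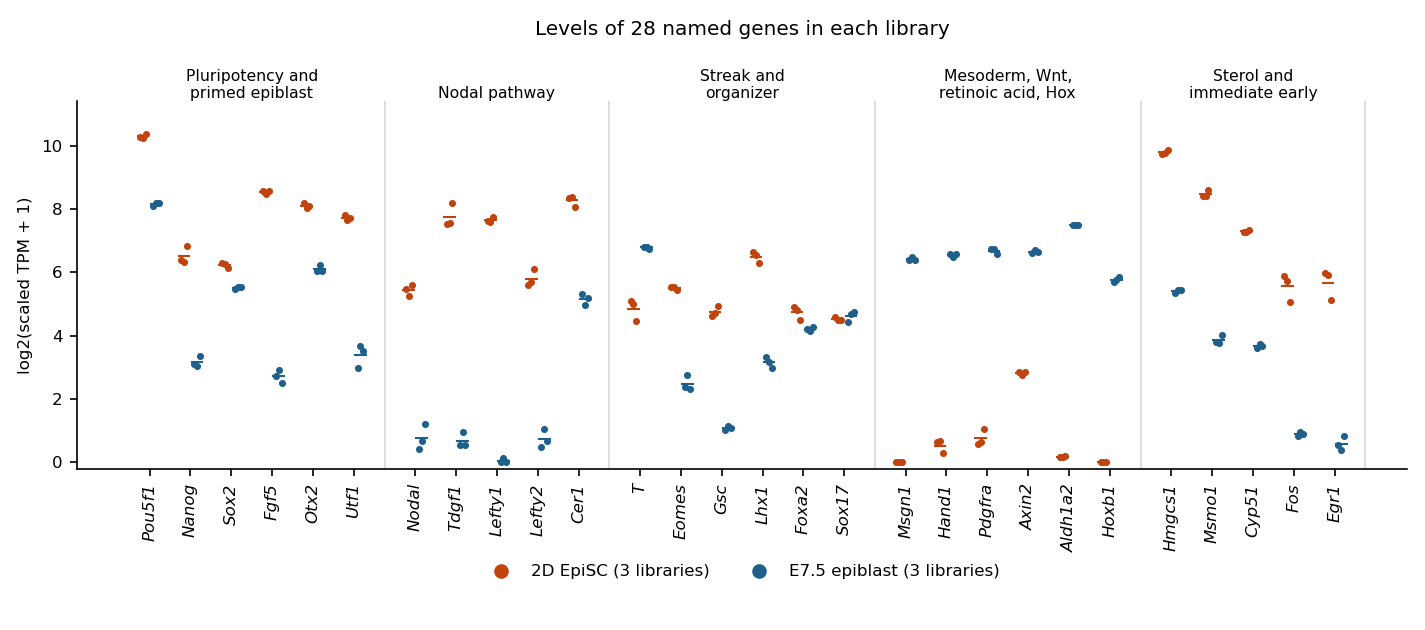
The y axis gives log2(scaled TPM + 1) for 28 genes, with a point for each library, a bar for the mean of the log values, 2D EpiSC in orange and E7.5 epiblast in blue. Nodal, Tdgf1, Lefty1 and Lefty2 are near 0 in E7.5, Msgn1, Hand1, Aldh1a2 and Hoxb1 are near 0 in 2D EpiSC, and Sox17 is at the same height in both.

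Not all genes of the primed and pluripotent lists followed. Among the 20 formative and primed genes, 6 were called higher, 3 lower and 11 were not called (median 0.38). The 3 lower ones were Lef1 (12.6 against 104), the Wnt-responsive transcription factor, Nkx1-2 (1.8 against 94.5), a gene of the caudal epiblast, and Sox11 (29.4 against 77.2), a gene of early neural cells. Of the 20 core and naive pluripotency factors only 11 passed the filter on low values, and 4 of these were called higher and 2 lower. Esrrb and Zfp42, markers of naive cells, did not pass it, and the highest level of Zfp42 in the 6 libraries was 2.01 scaled TPM, in E7.5. Klf4 was at 3.22, 3.11 and 3.02 against 3.62, 5.13 and 3.6 and was not called. The 2 lower ones were Tbx3 and Tfcp2l1, which both stand on the list of naive markers too. Tbx3 stood at 35.6, 32.2 and 34.7 in E7.5 and at 1.49, 1.82 and 0.485 in 2D EpiSCs, and its mean at E5.5 (16.5) and E6.5 (25.7) was also above that of EpiLCs (0.398).

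Within the Nodal and Activin pathway, the ligand, the co-receptor and the feedback targets were higher in 2D EpiSCs, and the intracellular transducers were not called. The filter on low values fixed the direction of Nodal, Tdgf1, Lefty1 and Lefty2, as given below. Nodal stood at 42.9, 37.3 and 47.1 against 0.338, 0.599 and 1.3 (difference 4.67 ± 0.2 SE). Tdgf1 (Cripto) stood at 181, 186 and 290 against 0.468, 0.924 and 0.463. Lefty2 stood at 46.9, 50.2 and 67.1 against 0.403, 1.05 and 0.584. For all 3 genes every library of 2D EpiSC was more than 20-fold above every library of E7.5. The feedback regulator Skil (118 against 25.5) was also called higher. Smad2 (difference -0.08), Smad3 (-0.30) and the Smad partner Foxh1 (0.63) were not called. On the other side, Fst, which binds and blocks Activin, was at 10.3 ± 0.997 against 79.3 ± 6.58, and the receptor Acvr2b was called lower by 1.12 but not on the unscaled TPM (-0.77). Of 19 members tested, 7 were called higher and 3 lower (median 0.27). Of the 19, 4 passed the filter on low values through the 2D EpiSC libraries alone and so had to be higher. These were Nodal, Tdgf1, Lefty1 and Lefty2, each below 2 scaled TPM in every E7.5 library. Without any 1 of these libraries 3 of the 15 genes left were called higher and 3 lower, with a median between -0.27 and -0.08.

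Several genes of the anterior streak and organizer were higher in 2D EpiSCs, while several of the posterior streak were lower. Gsc, a transcription factor of the organizer, stood at 23.8, 25 and 29.5 against 1.03, 1.23 and 1.11, a difference of 3.67 ± 0.092 (SE). It passed the filter on low values through 2D EpiSC alone and so had to be higher. Lhx1, another organizer factor, stood at 98, 92.1 and 77.3 against 8.97, 8 and 6.92. Eomes, which drives the streak towards endoderm and anterior mesoderm, stood at 45, 45.3 and 42 against 4.16, 5.78 and 3.97. For Gsc, Lhx1 and Eomes the groups did not overlap, and at E6.5 their means were 49.3, 64.9 and 236. Cer1, a secreted antagonist of Nodal, BMP and Wnt, was at 308 ± 34.3 against 34.7 ± 4.51. T (Brachyury), which marks the whole streak and the nascent mesoderm, went the other way with 33.1, 31 and 20.9 against 111, 111 and 105, a difference of -1.93. The caudal factor Cdx2 was at most 0.0302 in 2D EpiSCs and 61.7 to 66.4 in E7.5. Cdx1 was listed at 0 in all 3 libraries of 2D EpiSC and stood at 134, 148 and 136 in E7.5. Of the 14 organizer genes tested, 7 were called higher and 3 lower (median 1.07). Of the 14, 2 (Gsc and Lefty1) passed the filter through 2D EpiSC alone and 1 through E7.5 alone. Without any 1 of the 2D EpiSC libraries 5 of 12 organizer genes were called higher, with a median between 0.59 and 0.74. Of the 19 streak genes 7 were higher and 8 lower (median -0.18, or 0.14 on the unscaled TPM), and 4 passed the filter through each group alone. The direction of this median depended on which genes passed the filter. Leaving out a library removes those that passed through its group alone. Without any 1 of the 2D EpiSC libraries 3 of 15 streak genes were higher and 8 lower (median -2.02 to -1.69), and without any 1 of the E7.5 libraries 6 or 7 were higher and 4 lower (median 0.40 to 0.50). The lower organizer genes Noto and Shh belong to the notochord, and the third was Fst. Chrd (0.25) and Nog (-0.87), which encode BMP antagonists, and Foxa2 were not called.

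Endoderm genes fell into groups with different directions. Sox17, the defining factor of definitive endoderm, was at 23, 21.6 and 21.5 in 2D EpiSCs and at 20.7, 24.7 and 25.6 in E7.5, with overlapping libraries and a difference of -0.10 (95% interval -0.31 to 0.12). Foxa2, shared by endoderm and axial mesoderm, differed by 0.53 (0.25 to 0.80), and Gata6 by -0.31 (-0.66 to 0.04). Cxcr4, a chemokine receptor of definitive endoderm, was at 54.4 ± 7.64 against 12 ± 0.0994, and Hhex, a factor of anterior endoderm, at 30.5 ± 9.17 against 8.34 ± 1.3. Trh, the gene for thyrotropin-releasing hormone, was at 718 ± 46.9 against 67.6 ± 3.9. Hnf4a, Gata4 and Spink1 were called lower, at 1.1, 7.27 and 54.8 against 27.8, 36.7 and 137. Visceral endoderm also expresses Hnf4a and Gata4, and Hnf4a is on its marker list, which was high in all 3 E7.5 libraries. The part of visceral endoderm in the E7.5 levels of the other genes, Sox17 included, was not tested. In total 5 of 15 genes tested were called higher and 4 lower (median -0.10, or 0.24 on the unscaled TPM).

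Replicate 3 of 2D EpiSC stood apart from the other 2 libraries in several gene lists. Replicate 3 was the lowest of the 3 for 12 of the 15 definitive endoderm genes tested (80%), against 40.5% of all genes tested. For 6 of them (40%), among them Foxa1, Gata4, Hhex, Hnf4a and Spink1, it was more than 0.5 log2 units below the mean of the other 2, against 3.44% of all genes. It was also the lowest for 11 of 14 organizer genes (78.6%), 16 of 22 BMP genes (72.7%) and 13 of 18 neural and surface ectoderm genes (72.2%). It was more than 0.5 below the others for 4 of 15 visceral endoderm markers (26.7%), 4 of 16 retinoic acid genes (25%) and 7 of 29 mesoderm genes (24.1%). Spink1 stood at 65.2, 71.5 and 27.6, Gata4 at 9.31, 9.13 and 3.38, and Pga5 at 191, 192 and 53.3. Replicates 1 and 2 were also closer to each other (0.0634) than either was to replicate 3 (0.121 and 0.129). Replicate 3 also had a lower share of TPM in mitochondrial genes (3.57%, against 6.8% and 6.71%), and the part of this in the endoderm values was not tested. Without replicate 3 the differences of Spink1 (-0.95) and Shh (-0.89) were no longer called. Sfrp5 (41.8, 42.8 and 14.6 in 2D EpiSCs), a secreted Wnt antagonist, was called at 1.19 and lost its call without any 1 of the other 5 libraries, with an adjusted p between 0.0526 and 0.0791.

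Mesoderm genes were lower in 2D EpiSCs almost without exception. Of 30 listed genes 29 were tested, 28 were called lower and none higher, with a median difference of -3.58. However, 18 of the 29 passed the filter on low values through the E7.5 libraries alone and so had to be lower, and the count is given as a description. Msgn1, a master gene of the presomitic mesoderm, was listed at 0 in all 3 libraries of 2D EpiSC and stood at 81.8, 88.9 and 82.8 in E7.5. Hand1, of lateral and extra-embryonic mesoderm, stood at 0.543, 0.579 and 0.234 against 95.1, 88.2 and 94.4. Pdgfra, a receptor of nascent mesoderm, stood at 0.489, 0.561 and 1.05 against 105, 105 and 93.8. Mesp1, of early cardiac mesoderm, was listed at 0 in 2D EpiSCs and stood at 16.4, 16.4 and 15 in E7.5, with a mean of 84.9 at E6.5. Gata6 was the tested member that was not called. Hand1 and Bmp4 are also on the allantois list, of which 5 of 10 genes were tested and all 5 were called lower, and Pmp22 of that list was at 2.36 ± 0.0717 against 55.2 ± 0.636. Of the 7 blood and endothelium markers tested, 5 of them passing through E7.5 alone, 6 were called lower, among them Lmo2 (2.31 against 25.6), and Runx1 was called higher (7.92 against 2.88).

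**Figure D4:**
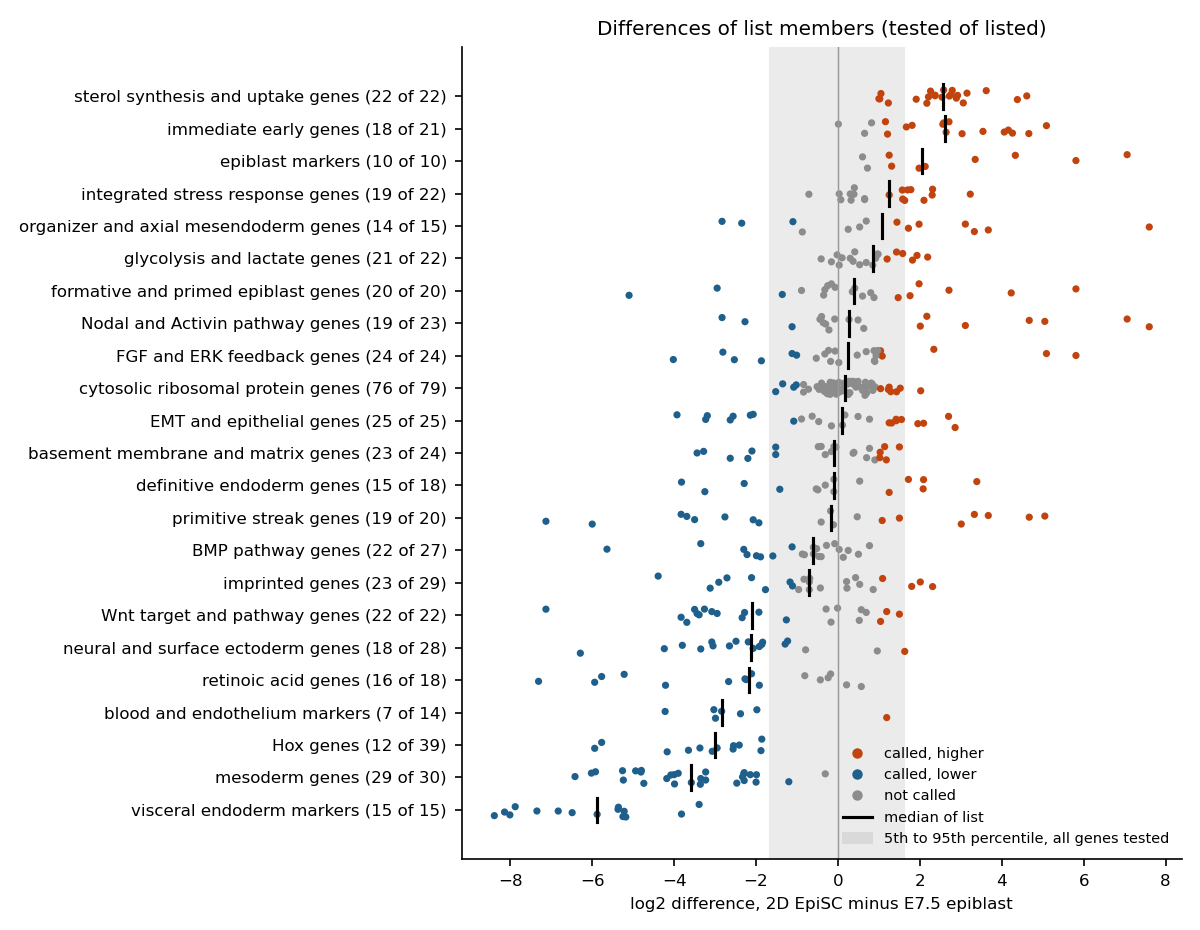
Each point is a tested member of a gene list at its log2 difference, with called members in orange (higher in 2D EpiSC) or blue (lower), the list median as a black bar and the range between the 5th and 95th percentile of all genes tested in gray. Row labels give the number tested of the number listed. All 22 sterol genes lie on the right, and all tested Hox genes and visceral endoderm markers lie on the left. The 12 Hox genes and 12 of the 15 markers passed the filter on low values through E7.5 alone and so had to lie there.

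Hox genes, which set position along the body axis, were at or near 0 in 2D EpiSCs. Of 39 Hox genes, 12 passed the filter on low values, each through the E7.5 libraries alone. All Hox genes together summed to between 0.75 and 1.2 scaled TPM in 2D EpiSCs and to between 205 and 223 in E7.5, and 27 of the 39 were listed at 0 in all 3 libraries of 2D EpiSC. Hoxb1, a gene of the hindbrain, stood at 50.9, 52.7 and 57.2 in E7.5 and was listed at 0 in 2D EpiSCs. At E6.5 the 39 genes summed to no more than 4.66.

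Neural and surface ectoderm genes were likewise low in 2D EpiSCs. Of 28 listed genes 18 were tested, of which 15 were called lower and 1 higher (median -2.13), and 8 of the 18 passed the filter through E7.5 alone. Of the 10 genes left without any 1 of the E7.5 libraries, 7 were called lower. Gbx2, which patterns the hindbrain and anterior spinal cord, stood at 0.542, 0.422 and 0.22 against 111, 108 and 104. The surface ectoderm and neural crest factor Tfap2a was at 0.511 ± 0.286 against 27.3 ± 3.35, and Sox1, the earliest neural factor, at 0.284, 0.435 and 0.628 against 4.64, 4.23 and 3.84. Pax6 was below 2 scaled TPM in all 6 libraries. Grhl3, an epidermal factor, was the member called higher, at 11.3 ± 1.4 against 2.96 ± 0.468.

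Of 22 Wnt genes tested 13 were called lower in 2D EpiSCs and 3 higher, with a median of -2.11. However, 4 of the 22 passed the filter on low values through the E7.5 libraries alone and so had to be lower, and 1 passed through 2D EpiSC alone. Without any 1 of the E7.5 libraries 9 of 18 genes were called lower, with a median between -0.83 and -0.80, and without replicate 1 or replicate 2 of 2D EpiSC none was called higher. Axin2, a feedback inhibitor that is read as a general Wnt target, stood at 6.26, 5.77 and 6.17 against 97.1, 102 and 98.9, a difference of -3.83 ± 0.06 (SE, limma adjusted p = 4.2e-08). Sp5, a transcription factor and direct Wnt target, stood at 2.44, 2.39 and 2.69 against 36.9, 40.6 and 38.5. Of the ligands, Wnt3a (0.076 against 12.9), Wnt5a (0.936 against 19.2) and Wnt8a (4.48 against 55.4) were called lower and Wnt3, the ligand of the early streak, was called higher (6.67 against 1.71). The other 2 higher members, Sfrp1 and Sfrp5, are secreted antagonists. Tcf7 (-0.17), Ccnd1 (-0.29) and Rnf43 (-0.01) were not called.

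The promoters of T and Sp5 are shown because both are Wnt targets with lower levels in 2D EpiSCs. The windows run from 250 bases before to 50 after the start of the gene in RefSeq (GRCm38.p6), and the capitals mark matches to CTTTGAT or CTTTGAA, the core letters bound by Tcf/Lef factors, on either strand. Such a match stood in the windows of 5 of the 13 Wnt genes with a window (Wnt5b, Wnt11, Sp5, Dkk1 and T), and in those of 9.88% of 27025 genes. Of these 5 genes, Wnt5b, Sp5 and T were called lower, and Wnt11 (0.57) and Dkk1 (0.69) were not called.
T, chr17:8434173-8434472, plus strand: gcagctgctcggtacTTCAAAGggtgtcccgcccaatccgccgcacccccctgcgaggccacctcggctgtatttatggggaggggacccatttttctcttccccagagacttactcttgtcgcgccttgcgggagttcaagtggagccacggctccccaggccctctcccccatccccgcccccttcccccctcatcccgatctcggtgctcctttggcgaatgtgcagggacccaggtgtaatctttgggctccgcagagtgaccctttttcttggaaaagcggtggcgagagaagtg
Sp5, chr2:70474673-70474972, plus strand: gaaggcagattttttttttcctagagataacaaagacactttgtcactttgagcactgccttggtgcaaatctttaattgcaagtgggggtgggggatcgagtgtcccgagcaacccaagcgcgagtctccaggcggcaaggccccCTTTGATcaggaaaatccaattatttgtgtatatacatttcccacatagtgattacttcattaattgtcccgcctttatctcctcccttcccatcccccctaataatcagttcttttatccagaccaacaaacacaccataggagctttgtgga

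Several retinoic acid genes were also lower in 2D EpiSCs. Aldh1a2 (chr9:71215789-71296243), the enzyme that makes retinoic acid in the embryo, stood at 0.114, 0.125 and 0.159 in 2D EpiSCs and at 177, 180 and 180 in E7.5. It was as low at E6.5 (mean 0.166) as in the cells. The receptor Rarb, itself a target of the pathway, was at 1.17 against 12.7, and the binding protein Crabp1 at 5.27 against 114. The degrading enzyme Cyp26a1 differed by 0.57 and was not called (105 against 68.1). Of 16 genes tested 10 were called lower and none higher (median -2.18), and 5 of the 16 passed the filter through E7.5 alone. Without any 1 of the E7.5 libraries these 5 drop out, and 5 of 11 genes were called lower with a median between -0.87 and -0.82. Rbp4, among the 10, is also a visceral endoderm marker.

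Several BMP genes were lower in 2D EpiSCs, and FGF genes were called in both directions. Of 22 BMP genes tested 8 were called lower and none higher (median -0.60), and 3 of the 22 passed the filter through E7.5 alone. Without any 1 of the E7.5 libraries 5 of 19 were called lower. The targets Msx1 (0.411 against 69.3) and Msx2 (1.33 against 22.4), the inhibitory Smad6 (4.68 against 26.9) and the ligands Bmp4, Bmp5 and Bmp7 were among the 8. Bmpr1a (0.50), Smad1 (-0.47), Smad5 (-0.08) and the target Id1 (-0.60) were not called. Of 24 FGF genes 5 were called higher and 6 lower (median 0.24), with 2 of the 24 passing the filter through E7.5 alone and 1 through 2D EpiSC alone. Over all genes tested, 11.8% were called higher and 11.0% lower. Without any 1 of the E7.5 libraries 4 of 22 FGF genes were called lower. The receptors Fgfr1 (103 against 224), Fgfr2, Fgfr3 and Fgfr4 (0.442 against 7.38) were all called lower. Fgf5 and Fgf8 were called higher, the latter at 52.4, 53.6 and 65.9 against 22.2, 28.2 and 29.3, with a difference of 1.08 that was 0.93 and not called without E7.5 replicate 1. The ERK feedback genes Spry4 (0.02), Etv4 (-0.07) and Spry2 (0.69) were not called, and Dusp4 was called lower (-1.01). Of 13 Notch and segmentation genes 2 were called higher and 5 lower, with the ligands Jag2 (24.5 against 2.65) and Dll1 (4.45 against 62.7) in opposite directions.

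Several genes of epithelial junctions were higher and drivers of epithelial-to-mesenchymal transition lower in 2D EpiSCs. Of the 25 genes of this list, 9 were called higher and 8 lower (median 0.11), and 2 of the 25 passed the filter through E7.5 alone. Without any 1 of the E7.5 libraries 9 of 23 were called higher and 6 lower. Cdh1 (E-cadherin) stood at 482, 463 and 437 against 182, 188 and 186, a difference of 1.31 ± 0.063 (SE, limma adjusted p = 4.13e-06). The polarity gene Crb3 (89.7 against 11.5) and the claudins Cldn4 (49.2 against 6.71), Cldn6 (412 against 105) and Cldn7 (106 against 39.2) were also called higher. The repressors of E-cadherin Snai1, Snai2, Zeb1 and Zeb2 and the factor Twist1 were all called lower, with Zeb2 at 3.26, 3.46 and 3.24 against 73.9, 60.3 and 60.7. Cdh2 (N-cadherin), the cadherin of mesoderm and neural cells, stood at 36.3, 33.9 and 32.1 against 37.5, 37.7 and 39.1 and was not called (-0.16, interval -0.32 to 0.00). Fibronectin (Fn1) was at 75.4 ± 19.2 against 462 ± 4.79. In the basement membrane and matrix list 5 of 23 genes tested were called higher and 7 lower (median -0.10, or 0.26 on the unscaled TPM), and 4 of 20 were called lower without any 1 of the E7.5 libraries. The laminin chains were divided, with Lama5 (91.2 against 40.9) and Lamc1 (135 against 65.3) higher and Lama1 (3.38 against 40.9) lower. The call of Lamc1 was lost without E7.5 replicate 1 or replicate 3 (difference 1.00 each).

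All 22 genes of sterol synthesis and uptake were called higher in 2D EpiSCs, with differences of 1.00 to 4.61 and a median of 2.56, against 11.8% of all genes called higher. Hmgcs1, which makes the substrate of the mevalonate pathway, stood at 852, 868 and 931 against 40, 42 and 42.6. Msmo1, a late enzyme of the pathway, stood at 337, 341 and 384 against 12.8, 12.7 and 15.2. The regulator Srebf2 was at 179 against 46.6. The libraries did not overlap for any of the 22 genes, which also held for 2619 of all 2621 genes called. At least 20 of the 22 were called higher under every alternative setting that kept the threshold of 1 log2 unit. The same genes summed to between 3575 and 3825 in EpiLCs and to between 850 and 1049 at E5.5 and E6.5, so the level separated culture from embryo, and with it the kits, which cannot be told apart. The embryo-derived 3D EpiSCs, at 2446 to 3473, were also above every embryo library (at most 1436, at E4.5). The promoter of Hmgcs1 is shown as the member with a match, in capitals, to CACCCCAC, the core of a known sterol regulatory element. It was the only match among the 14 sterol genes with a window (7.14%), searched on both strands, and 3.3% of all genes had such a match.
Hmgcs1, chr13:119690101-119690400, plus strand: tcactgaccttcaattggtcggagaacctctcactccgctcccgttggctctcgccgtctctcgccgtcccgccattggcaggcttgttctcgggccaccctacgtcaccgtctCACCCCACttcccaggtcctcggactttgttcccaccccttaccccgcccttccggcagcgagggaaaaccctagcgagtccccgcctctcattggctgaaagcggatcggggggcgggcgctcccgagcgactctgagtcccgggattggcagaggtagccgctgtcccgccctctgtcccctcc

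Most of the immediate early genes, and some of the stress response and glycolytic genes, were also higher in 2D EpiSCs. Of 18 immediate early genes tested 15 were called higher and none lower (median 2.61), although 7 of the 18 passed the filter through the 2D EpiSC libraries alone and, without any 1 of these libraries, 8 of the 11 left were called. Fos stood at 57.3, 52.1 and 32.5 against 0.782, 0.93 and 0.864, and Egr1, an ERK target, at 61.3, 59.4 and 34 against 0.446, 0.308 and 0.772. The list differed between culture groups, with sums of 951 to 1031 in 2D EpiSCs, 404 to 487 in EpiLCs and 1562 to 1622 in ESC-derived 3D EpiSCs, and E7.5 was the lowest group at 205 to 234. Of 19 stress response genes 10 were called higher and none lower (median 1.25), led by Ddit4 (293 against 30.4), an mTORC1 inhibitor. However, 2 of the 19 passed the filter through 2D EpiSC alone and so had to be higher. Without any 1 of the 2D EpiSC libraries 8 of 17 were called higher, with a median between 0.61 and 0.82. Atf4 (0.65) and Ddit3 (0.07), the transcription factors of this response, were not called. Of 21 glycolysis and lactate genes 6 were called higher and none lower (median 0.85), among them Gapdh (6051 against 1711, uncertain since near-identical pseudogenes can share its reads) and Pdk1 (85.2 against 21.7), while the glucose transporters Slc2a1 (-0.16) and Slc2a3 (-0.02) were not called. The 76 cytosolic ribosomal protein genes tested had a median of 0.18, with 7 called higher and 4 lower, against 11.8% and 11.0% of all genes. Rplp1 at the edge (-1.02) lost its call in several alternatives. The ribosomal protein genes too have many near-identical pseudogenes, so their levels are uncertain.

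To set the culture against the embryo within each kit, the change from EpiLCs to 2D EpiSCs was compared with the change from E5.5 to E7.5 epiblast over 12 libraries. EpiLCs are epiblast-like cells early in the conversion from ESCs and stand here as the earlier culture stage. Their libraries still held naive markers, which summed to between 1084 and 1843 scaled TPM, against 103 to 110 at E5.5, and the part of this in the results was not tested. A factor common to all libraries of a kit drops out of this difference in change, which is culture minus embryo on the log2 scale. It shares the 2D EpiSC and E7.5 libraries with the contrast above, so the values stand side by side and do not support each other. Of 11921 genes tested, 1211 (10.2%) had a positive and 1047 (8.78%) a negative difference in change past the same thresholds. The visceral endoderm markers, with a median of -5.88 in the direct contrast, had a median difference in change of -0.93, and 5 of 15 were called. The sterol genes, with a median of 2.56, had one of 0.63, and 7 of 22 were called. Organizer genes had a median change of 1.43 in culture and 0.03 in the embryo, with 9 of 14 called positive. Cer1 was at 0.0113 in EpiLCs and 308 in 2D EpiSCs, while it stood at 38.5 at E5.5 and 34.7 at E7.5, a difference in change of 8.24 ± 0.15 (SE, limma adjusted p = 5.16e-12). Definitive endoderm genes had a median change of 2.48 in culture and 0.30 in the embryo, with 11 of 15 called positive. Sox17 changed by 4.12 in culture (from 0.225 in EpiLCs) and by 0.30 in the embryo, where it was at 19.3 at E5.5. The visceral endoderm markers already summed to between 1755 and 1764 at E5.5. The part of this tissue in the embryo values of the endoderm and organizer genes was not tested. Mesoderm genes had a median change of 3.31 in the embryo and 0.03 in culture, with 26 of 29 called negative and Gata4 and Gata6 called positive. T changed by 3.72 in culture and 3.78 in the embryo, a difference in change of -0.06 (limma adjusted p = 0.87), which became 2.41 with E6.5 in place of E5.5. Epiblast markers had a median change of -1.82 in the embryo and -0.20 in culture, with 8 of 10 called positive.

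**Figure D5:**
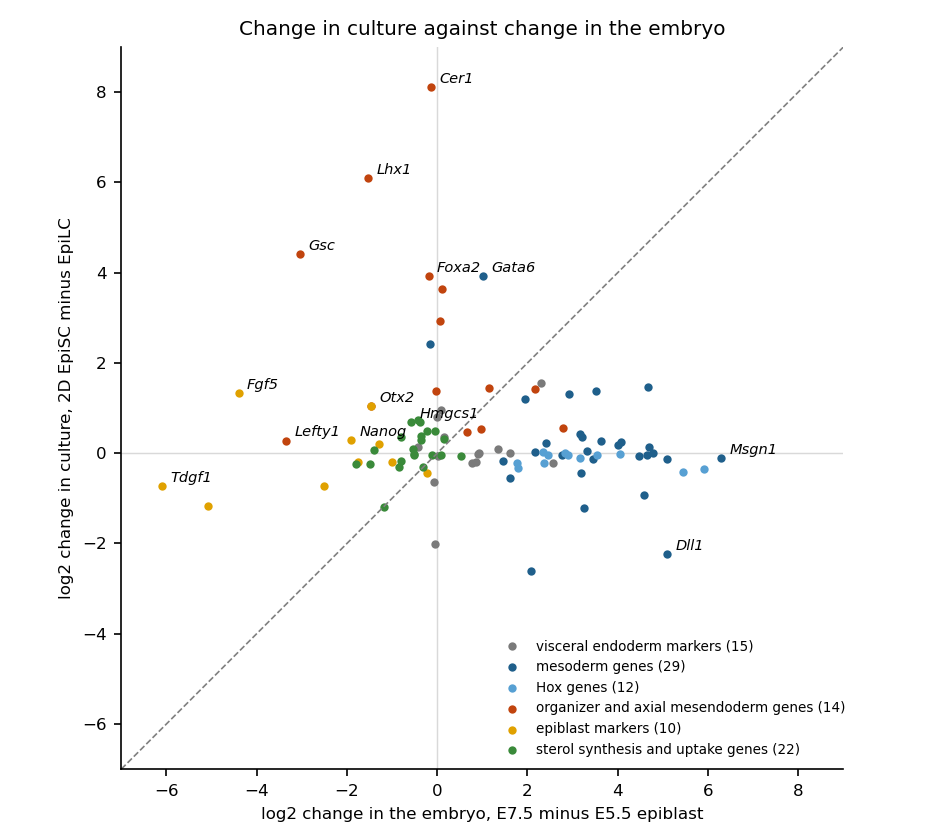
Each point is a gene of 6 lists, with its log2 change from E5.5 to E7.5 epiblast on the x axis and from EpiLC to 2D EpiSC on the y axis, and the dashed line marks equal change. Hox and mesoderm genes spread to the right at y near 0, organizer genes such as Cer1, Lhx1 and Gsc lie high at x near or below 0, and epiblast markers such as Tdgf1 and Fgf5 lie to the left.

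Across 12526 genes, 2D EpiSCs were about as far from E6.5 epiblast (median absolute log2 difference 0.487 to 0.53 over 9 pairs of libraries) and from E5.5 (0.503 to 0.518) as from E7.5 (0.496 to 0.539). The correlation across genes, which are not independent replicates, was 0.900 to 0.906 with E6.5, 0.904 to 0.908 with E5.5 and 0.869 to 0.878 with E7.5. The nearest groups were the 3D EpiSCs, at 0.222 to 0.392 for the ESC-derived and 0.247 to 0.287 for the embryo-derived cells, which share the kit with the 2D cells. E7.5 epiblast was nearer to E6.5 (0.308 to 0.369) and E5.5 (0.319 to 0.343), which share its kit, than to any culture group (0.496 or more).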

How the data were processed

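Bulk RNA-seq of 27 libraries in 9 groups of 3 was available, and 6 libraries formed the main contrast. The deposited values are TPM per gene, which the authors made with StringTie on the GENCODE annotation after STAR alignment to mm10 and trimming in cutadapt 2.4. Every library sums to the same total, so depth and its precision are unknown. The single-cell and bisulfite samples were not analysed here. TPM was divided by median-of-ratios factors over the 6 libraries. Genes were autosomal, protein-coding (GENCODE vM21 biotypes), without Hist or mt- symbols, and above 2 TPM in at least 3 libraries. On log2(TPM + 1), limma 3.58.1 in R 4.3.3 (lmFit, eBayes) was fitted to the 6 libraries, and to 12 libraries for the difference in change. Calls used the thresholds given above. On simulated data, the main contrast recovered 199 of 200 genes that had been given a change of 2 log2 units, with 1 false call among 11471 genes. The simulated libraries held independent noise and no effect of kit, strain or culture. This checks the code only and gives no rate of false calls for the real libraries. Named genes were the 10 called genes per direction with the greatest difference and no overlap of libraries, up to 4 called members per list and direction, 22 markers of the study and 5 genes per direction for the difference in change. Other values show members that were not called. The members and lists were chosen with earlier results of these data known. Alternatives are given at the end. Some members of the lists are counted but not reported here by name.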

Additional observations from a re-analysis of the deposited data

Results flagged for a closer look

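The 24 genes given here changed differently in culture (EpiLC to 2D EpiSC) and in the embryo (E5.5 to E7.5), by limma over 12 libraries. They come from the markers of the study and the 5 genes per direction with the greatest values. The latter were picked among genes already called, so the choice fixed their calls. Of all 11921 genes tested, 18.9% were called in either direction. Values are culture minus embryo in log2 units, with the genes chosen as above. Among pluripotency and primed genes the values were 5.74 for Fgf5, 2.51 for Otx2, 2.19 for Nanog, 1.55 for Pou5f1 and -2.89 for the naive marker Zfp42. Among streak, organizer and endoderm genes they were 8.24 for Cer1, 7.62 for Lhx1, 7.46 for Gsc, 7.28 for Eomes, 4.12 for Foxa2, 3.83 for Sox17, 2.91 for Gata6, 2.85 for Hhex and 2.59 for Gata4. The transcription factor Foxq1 had a value of 7.57, Pga5 of 9.67 and Cdh2 of 1.52. Pga5, Cer1 and Sox17 were at or near 0 in EpiLCs, so their values depend on the pseudocount, as does that of any other gene near 0 in a group. Negative values were -9.37 for Gbx2, -7.59 for Aldh1a2, -7.32 for Dll1, -7.18 for Cdx1, -6.40 for Msgn1, -2.80 for Mesp1 and -2.79 for Sox1. The value of Mesp1 was 2.25 with E6.5 in place of E5.5. Cdx1, Msgn1 and Mesp1 were listed at 0 in 2D EpiSCs, and Aldh1a2, Gbx2 and Sox1 were near 0 there, so the fitted values also depend on the pseudocount. Gbx2 and Dll1 stood at 18.8 and 26 scaled TPM in EpiLCs and at 0.394 and 4.45 in 2D EpiSCs, while both were higher at E7.5 than at E5.5.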

How the results depend on the processing

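Counts of calls moved by over 1.5 times on the TPM as deposited (2315 higher, 831 lower) and above 2 log2 units (325 and 395). No gene called in the main contrast was called in the opposite direction under another setting. With a replicate block the calls were 1356 higher and 1268 lower, and 1209 and 1046 for the difference in change. The numbers do not pair the libraries (correlations of deviations 0.000655 to 0.0509). Leaving out a replicate gave 1059 to 1333 higher and 906 to 1231 lower, since a gene above 2 TPM in 1 group alone then fails the filter and gets no value. With E6.5 as the early stage, the difference in change reversed for T (2.41) and Mesp1 (2.25), and the cause was not tested. Of 158 named genes in the main contrast, 13 lost their call under at least 1 alternative, among them Sfrp1, Sfrp5, Rpl22, Rplp1, Shh, Spink1 and Fgf8, and Sox2 gained it. Without counts, no limit of detection can be given.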

Other observations

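Genes outside the tests also differed. H19, an imprinted non-coding RNA of the placenta and early embryo, stood at 19, 18.3 and 9.77 scaled TPM in 2D EpiSCs and at 1600, 1554 and 1577 in E7.5, with a mean of 8.02 in EpiLCs and 1385 at E6.5. Igf2, its neighbor, followed with 35, 33.3 and 18.2 against 224, 211 and 209. Meg3, from another imprinted locus, was at 238, 237 and 164 against 260, 250 and 232. Of the 23 imprinted genes tested, 4 were called higher (Impact, Slc38a4, Snrpn and Magel2) and 8 lower, against 11.8% and 11.0% of all genes. Their median was -0.70, with Dlk1 the lowest at 2.11 against 64.2. Xist, which silences the X chromosome in female cells, was at most 0.00392 in 2D EpiSCs and at 59.5, 57.4 and 57 in E7.5, whose embryos were pooled without regard to sex. The Y-linked gene Ddx3y was read in all 6 libraries (25.9, 25.6 and 30.7 against 13.1, 15.8 and 14).

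Other lists showed little. Of 8 primordial germ cell genes tested, Ifitm3 was called higher and Ifitm1, Alpl and Tfap2c lower. Only 2 of 19 methylation-dependent germline genes passed the filter on low values, of which Sycp3 was called lower (0.582 against 3.59). Of 6 uterine decidua markers tested, only Hand2, which is also a mesoderm gene, was called. Of 6 trophoblast markers tested, Ascl2 and Wnt7b were called higher and Sct and Tfap2c lower, and all 12 summed to no more than 61 in either group. The 10 naive and 2-cell markers summed to between 8.02 and 9.09 in 2D EpiSCs and between 48.1 and 52.3 in E7.5, where Tbx3 gave most of the sum.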
